A study of Mus musculus with 10 samples.

Results

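The genes described here are 7 Toll-like receptors (Tlr1, Tlr2, Tlr4, Tlr6, Tlr7, Tlr9 and Tlr13), their adaptor Myd88, the inflammasome sensor Nlrp3 and the inflammatory protease Casp1. They were chosen by name and for their roles, and all 10 were present among the 17599 genes measured. Transcript levels came from RNA sequencing of cells that the labels call EPC, an abbreviation they do not spell out, from wild-type female C3H/HeN mice, a laboratory strain, carrying tumors of SCC7. SCC7 is a mouse squamous carcinoma cell line, and the labels give the disease as HNSCC, head and neck squamous carcinoma. FACS gave 3 groups: spleen CD45- cells (n = 3), spleen CD45+ cells (n = 3) and tumor CD45+ cells (n = 4). CD45, the product of Ptprc, is the surface phosphatase of white blood cells. All 3 groups came from tumor-bearing animals, with no treatment and no tumor-free control among them, and the ages of the mice and the sort markers other than CD45 are not given in the labels. Whether replicates are separate mice is also not stated, so each p-value speaks only to the spread among these libraries, and that spread may be technical.

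Toll-like receptors are the membrane sensors through which innate immune cells, above all macrophages, monocytes, dendritic cells and neutrophils, recognise microbial molecules. Tlr1, Tlr2, Tlr4 and Tlr6 act at the cell surface on lipoproteins and lipopolysaccharide, whereas Tlr7, Tlr9 and Tlr13 act in endosomes on nucleic acids. All 7 signal through Myd88, which leads to NF-kB and to transcription of inflammatory genes, Nlrp3 among them. Nlrp3 in turn assembles an inflammasome, the platform on which caspase 1, the product of Casp1, is activated to cut pro-interleukin 1β and gasdermin D. In macrophages of mouse tissue, Nlrp3 is known as a gene that has to be induced before its protein can act.

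On assembly GRCm38.p6 the genes lie apart, apart from Tlr1 (chr5:64924680-64933600) and Tlr6 (chr5:64953092-64970942), which are neighbours. Tlr13 (chrX:106143275-106160493) and Tlr7 (chrX:167303380-167330574) are both on the X chromosome, and Nlrp3 occupies chr11:59541569-59566955. RefSeq promoter windows of 300 bases, from 250 before to 50 after the start site, were found for 8 of the 10 genes, 11 windows in all. The 250 bases before the start site are printed here, all on the + strand, for Tlr13, the most abundant endosomal receptor in the tumor cells, and for both start sites of Nlrp3, whose transcript models are compared further on. Capitals mark letters that match a searched motif on either strand.
Tlr13, chrX:106143025-106143274: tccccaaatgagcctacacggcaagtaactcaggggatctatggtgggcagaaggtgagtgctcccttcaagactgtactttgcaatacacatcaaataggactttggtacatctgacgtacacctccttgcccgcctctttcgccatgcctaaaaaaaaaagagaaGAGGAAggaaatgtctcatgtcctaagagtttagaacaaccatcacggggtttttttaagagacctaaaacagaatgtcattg
Nlrp3, upstream start site, chr11:59541319-59541568: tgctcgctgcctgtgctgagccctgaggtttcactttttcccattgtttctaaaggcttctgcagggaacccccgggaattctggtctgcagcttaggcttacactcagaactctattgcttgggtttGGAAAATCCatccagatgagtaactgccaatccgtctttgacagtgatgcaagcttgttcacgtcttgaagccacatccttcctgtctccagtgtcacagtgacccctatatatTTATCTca
Nlrp3, downstream start site, chr11:59542436-59542685: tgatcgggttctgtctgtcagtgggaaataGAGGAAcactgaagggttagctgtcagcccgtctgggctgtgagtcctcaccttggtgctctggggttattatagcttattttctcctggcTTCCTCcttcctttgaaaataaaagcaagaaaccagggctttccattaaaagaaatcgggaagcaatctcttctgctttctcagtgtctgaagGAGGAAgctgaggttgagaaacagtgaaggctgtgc

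5 motifs were searched on both strands of the 300-base windows. GAGGAA, a core of the kind bound by the myeloid factor PU.1, was found in 5 of the 11 windows (45.5%) and in 28.3% of all 32841 RefSeq windows of that length. It stood at positions -83 to -78 of Tlr13, counted from the start site, and at 3 places in the downstream window of Nlrp3. GGANNTTCC, a form bound by NF-kB, was found in 2 of the 11 windows and in 4.26% of all windows. In the upstream window of Nlrp3 it stood at -122 to -114, and AGATAA, the GATA motif, stood there at -8 to -3. AGATAA was found in 2 of the 11 windows (11.2% of all windows), GAAANNGAA, a core of interferon response elements, in 2 (8.56%), and TGANTCA, the AP-1 motif, in 1 (7.81%). No 2 of these matches shared bases other than 2 overlapping GAAANNGAA matches in a Tlr6 window. These letters are a description of the windows; binding was not measured.

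Values are in FPKM, fragments divided by the length of the transcript and by the depth of the library, and the depth was about 17700000 to 20800000 fragments per library. The levels of different genes are therefore on a per-length scale. The spleen CD45- libraries were erythroid, with 62.5% to 63.5% of their summed FPKM from globin genes, and the spleen CD45+ libraries still held 29.4% to 52.2%, with granulocyte markers at summed levels of 23140 to 77744 FPKM. In the tumor CD45+ libraries Klf1, an erythroid transcription factor, was at 0.09 to 0.45 FPKM. There 11 of 12 monocyte and macrophage markers were higher than in spleen CD45+ cells, and Ly6c2 was lower, with means of 54.6 against 189 FPKM. The sum of the 12 monocyte and macrophage markers was 24418 to 45768 FPKM in tumor, 1467 to 4501 FPKM in spleen CD45+ and 68.2 to 121 FPKM in spleen CD45- libraries. All 12 granulocyte and all 8 B cell markers were lower in tumor than in spleen CD45+ libraries. Over all genes tested in this comparison, 37.8% were higher and 26.0% lower. The 6 epithelial and carcinoma markers summed to 312 to 406 FPKM in tumor, 0.39 to 2.84 FPKM in spleen CD45+ and 0.03 to 0.81 FPKM in spleen CD45- libraries. The 3 of them that could be tested, Krt8, Krt18 and Cdh1, were higher in tumor than in spleen CD45+ cells, with Krt8 at 208 to 239 FPKM in tumor and at most 0.05 FPKM in spleen CD45+ libraries. All 3 were below 1 FPKM in every spleen CD45+ library and could only be called higher. Epcam went the other way, at 1.18, 0.14 and 2.08 FPKM in spleen CD45+ and 0.02 to 0.04 FPKM in tumor libraries, and was not tested. Krt5 and Krt14 were at 0 FPKM in the spleen CD45+ and at 0 to 0.13 FPKM in the tumor libraries. The part of carcinoma RNA in the tumor levels given below was not tested. 2 libraries stood apart. Spleen CD45+ replicate 2 had Ptprc at 39.2 FPKM, against 153 and 265 FPKM in the others of its group, and tumor replicate 1 had 10.4% globin, against 1.80% to 1.87% in the other 3 tumor libraries. Differences of the 10 genes, counts of calls and list medians below are also given without either library where that ended a call or moved them by more than 1.5 times.

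Tlr2 recognises bacterial lipoproteins, and of the surface receptors it had the largest difference between the tissues. Its levels were 0.21, 0.20 and 0.14 FPKM in spleen CD45- libraries, 10.7, 2.12 and 8.19 FPKM in spleen CD45+ libraries and 83.6, 91.5, 94.8 and 91.1 FPKM in tumor CD45+ libraries. The 3 groups did not overlap, and every tumor library was far above the highest spleen library. From spleen CD45- to spleen CD45+ cells Tlr2 rose by 2.55 ± 0.46 (log2(FPKM + 1) difference ± SE, adjusted p = 0.00346). From spleen CD45+ (6.997 ± 4.40 FPKM, SD, n = 3) to tumor CD45+ cells (90.2 ± 4.72 FPKM, SD, n = 4) it rose by a further 3.71 ± 0.41 (adjusted p = 0.000154, limma with Benjamini-Hochberg adjustment over all genes tested, as throughout). Differences on this scale understate the change of genes with low values. In bulk libraries, fewer cells of a type and less RNA per cell cannot be told apart, and this holds for every comparison that follows.

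Tlr4, the lipopolysaccharide receptor, followed the same order at lower levels. It stood at 0.07, 0.16 and 0.09 FPKM in spleen CD45- libraries, about 5.3 to 11.9 fragments each, at 8.08, 1.24 and 4.85 FPKM in spleen CD45+ libraries and at 15.99, 20.2, 18.9 and 19.4 FPKM in tumor libraries. Again no groups overlapped, and spleen CD45+ replicate 2 was the lowest of its group. Tlr4 was higher in spleen CD45+ than in spleen CD45- cells by 2.15 ± 0.47 (adjusted p = 0.00694) and higher in tumor than in spleen CD45+ cells by 1.99 ± 0.43 (adjusted p = 0.0042).

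Tlr1 and Tlr6, which pair with Tlr2 to recognise lipoproteins, did not pass the test between tumor and spleen CD45+ cells. Tlr1 levels were 0.03, 0.05 and 0.09 FPKM in spleen CD45-, 7.83, 0.85 and 4.13 FPKM in spleen CD45+ and 4.37, 4.54, 5.06 and 5.43 FPKM in tumor libraries. Tlr6 levels were 0.07, 0 and 0.04 FPKM in spleen CD45-, 5.46, 1.33 and 3.54 FPKM in spleen CD45+ and 4.39, 4.04, 4.42 and 4.27 FPKM in tumor libraries. For both genes the tumor libraries lay inside the range of the spleen CD45+ libraries. The differences were 0.42 ± 0.46 for Tlr1 (95% interval -0.66 to 1.49, adjusted p = 0.456) and 0.37 ± 0.31 for Tlr6 (95% interval -0.36 to 1.09, adjusted p = 0.331). Without spleen CD45+ replicate 2 both turned to the other sign, at -0.21 and -0.04. Tlr6 passed the test of spleen CD45+ against spleen CD45- cells (1.98 ± 0.36, adjusted p = 0.00347), and Tlr1, below 1 FPKM in 1 of the CD45+ libraries, was not tested there. The curated models of the pair share 454 words of 50 bases, 16.6% of those in Tlr1 and 12.5% of those in Tlr6, so how the authors' counting divided reads between them is uncertain.

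Among the endosomal receptors, Tlr13, the mouse receptor for bacterial ribosomal RNA, had the highest level in tumor cells. It was at 0.20, 0.15 and 0.24 FPKM in spleen CD45-, 25.7, 4.42 and 13.0 FPKM in spleen CD45+ and 71.2, 78.9, 77.9 and 70.1 FPKM in tumor libraries. The tumor libraries lay close together, all above the highest spleen library. Tlr13 was higher in spleen CD45+ than in spleen CD45- cells by 3.40 ± 0.52 (adjusted p = 0.00209) and higher in tumor than in spleen CD45+ cells by 2.57 ± 0.47 (adjusted p = 0.00189).

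Tlr7 detects single-stranded RNA. Its levels were 0.49, 0.83 and 0.55 FPKM in spleen CD45-, 32.8, 2.84 and 13.8 FPKM in spleen CD45+ and 47.5, 51.4, 49.98 and 51.1 FPKM in tumor libraries. The groups did not overlap, but the spleen CD45+ libraries were spread more than 10 times in level. Tlr7 rose by 2.94 ± 0.70 from spleen CD45- to spleen CD45+ cells (adjusted p = 0.00948) and by 2.04 ± 0.63 from there to tumor cells (adjusted p = 0.0217). Among the 6 genes called higher there, Tlr7 was the only one whose call was lost in any setting tried. It was lost without spleen CD45+ replicate 3 (2.16, adjusted p = 0.0503), without tumor replicate 1 (2.06, adjusted p = 0.054) and with the globin genes taken out of the scaling (1.59, adjusted p = 0.0683).

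Tlr9, the receptor for unmethylated CpG DNA, did not pass the test between tumor and spleen CD45+ cells. Its levels were 0.12, 0.18 and 0.14 FPKM in spleen CD45-, 11.5, 0.94 and 5.74 FPKM in spleen CD45+ and 2.25, 5.74, 5.67 and 5.88 FPKM in tumor libraries. The tumor libraries fell within the spleen CD45+ range, with tumor replicate 1 the lowest at about 162 fragments. The difference between tumor and spleen CD45+ cells was 0.04 ± 0.60 (95% interval -1.35 to 1.43, adjusted p = 0.955), which leaves room for a change of more than 2-fold either way, and its sign changed between settings, with -0.71 without spleen CD45+ replicate 2 and 0.31 without tumor replicate 1. B cells are a known source of Tlr9, and the summed B cell markers were 149 to 1364 FPKM in spleen CD45+ and 6.09 to 7.76 FPKM in tumor libraries. Their part in the Tlr9 levels was not tested.

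**Figure D1:**
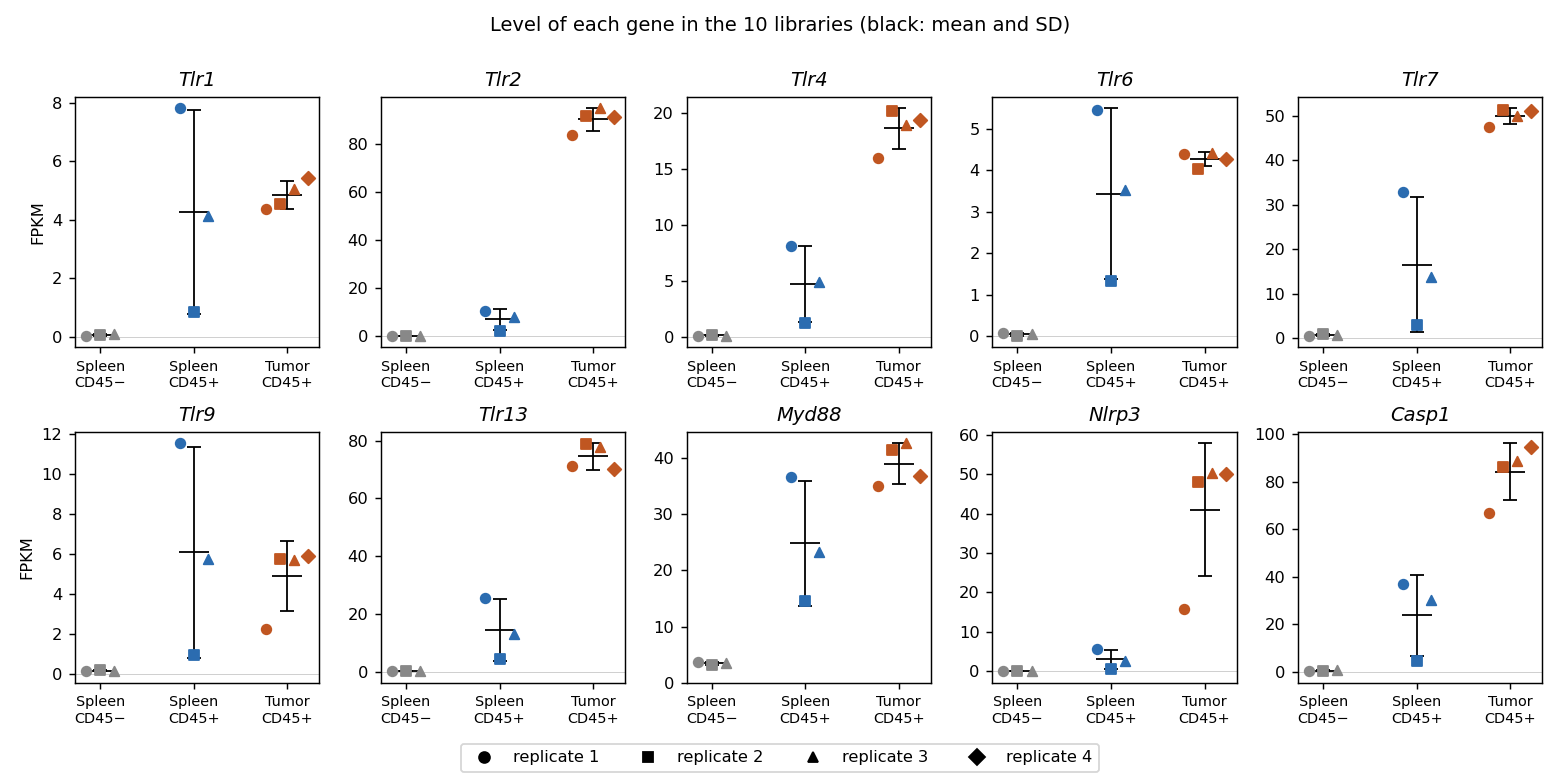
Levels in FPKM (vertical axes, linear, a scale of its own for each gene) of the 10 genes in spleen CD45-, spleen CD45+ and tumor CD45+ libraries, 1 point per library with its replicate number as the shape and black bars for the mean and SD. The tumor points lie above all spleen points for Tlr2, Tlr4, Tlr7, Tlr13, Nlrp3 and Casp1, and within the spleen CD45+ range for Tlr1, Tlr6 and Tlr9.

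Myd88, the adaptor through which all 7 receptors signal, was the only one of the 10 genes above 1 FPKM in spleen CD45- cells. It was at 3.77, 3.16 and 3.48 FPKM there, at 36.6, 14.6 and 23.2 FPKM in spleen CD45+ libraries and at 35.0, 41.4, 42.6 and 36.8 FPKM in tumor libraries. The spleen groups did not overlap, while tumor replicate 1 lay below spleen CD45+ replicate 1. Myd88 was higher in spleen CD45+ than in spleen CD45- cells by 2.44 ± 0.32 (adjusted p = 0.00144). Between tumor and spleen CD45+ cells the difference of 0.72 ± 0.28 (95% interval 0.06 to 1.37) did not pass (adjusted p = 0.0545). Other settings took its adjusted p from 0.00522 to 0.49, the lowest of them without spleen CD45+ replicate 1, and without replicate 2 of that group the difference was 0.40.

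Nlrp3, the sensor of the inflammasome, had the lowest mean of the 10 genes in spleen CD45+ cells (3.02 ± 2.52 FPKM, SD, n = 3). In replicate 1 of that group Tlr6 was lower, at 5.46 against 5.71 FPKM. Nlrp3 stood at 0.09, 0.10 and 0.01 FPKM in spleen CD45-, 5.71, 0.71 and 2.64 FPKM in spleen CD45+ and 15.9, 48.0, 50.3 and 49.9 FPKM in tumor libraries. Every tumor library was above every spleen library, and tumor replicate 1 was well below the other 3. Nlrp3 was higher in tumor than in spleen CD45+ cells by 3.47 ± 0.55 (adjusted p = 0.000978) and by 3.86 without tumor replicate 1 (adjusted p = 0.000959). Below 1 FPKM in 1 spleen CD45+ library, it was not tested between the spleen groups.

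Casp1 encodes caspase 1. It was at 0.38, 0.32 and 0.76 FPKM in spleen CD45-, 36.8, 4.59 and 30.2 FPKM in spleen CD45+ and 67.1, 86.5, 89.0 and 94.6 FPKM in tumor libraries. No groups overlapped, and the lowest library of each CD45+ group was the one that stood apart. Casp1 rose by 3.67 ± 0.67 from spleen CD45- to spleen CD45+ cells (adjusted p = 0.00359) and by 2.17 ± 0.61 from there to tumor cells (adjusted p = 0.0147).

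Of the 10 genes, 7 entered the test of spleen CD45+ against spleen CD45- cells, and all 7 were higher. 6 of these 7 were below 1 FPKM in every CD45- library and could only be called higher. In the same comparison 50.5% of the 9725 genes tested were called higher and 5.01% lower. All 10 genes had every CD45+ library above every CD45- library, as did 59.0% of the genes tested. All 7 calls held when any 1 library was left out and the same genes were tested. The split over all genes depended on the scaling, with 4911 higher and 487 lower as deposited, and 2363 higher and 2357 lower with trimmed-mean scaling, under which the median difference was -0.17 in place of 0.67. Under that scaling only 6 of the 10 genes passed the filter, and all 6 were called higher, beside 2363 of the 9522 genes tested. Here too, genes below 1 FPKM in every CD45- library could only be called higher.

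Between tumor and spleen CD45+ cells all 10 genes were tested, and 6 were higher: Tlr2, Tlr4, Tlr7, Tlr13, Nlrp3 and Casp1. None was lower (limma; at an unadjusted p under 0.05, 7 were higher and 0 lower). Among the 11459 genes tested 37.8% were higher and 26.0% lower. The same 6 genes had every tumor library above every spleen CD45+ library, against 38.4% of all genes tested. The median difference of the 10 genes was 2.01, beside 0.20 over all genes, and it was 1.25 without spleen CD45+ replicate 2. Without spleen CD45+ replicate 2 the same 6 were called, with smaller differences of 1.19 for Tlr7, 1.30 for Casp1, 1.42 for Tlr4, 1.96 for Tlr13, 2.95 for Nlrp3 and 3.14 for Tlr2. With globin genes removed before scaling, the split over all genes turned from 4326 higher and 2985 lower to 2937 higher and 4302 lower, with a median of -0.21, and 5 of the 6 were still called.

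**Figure D2:**
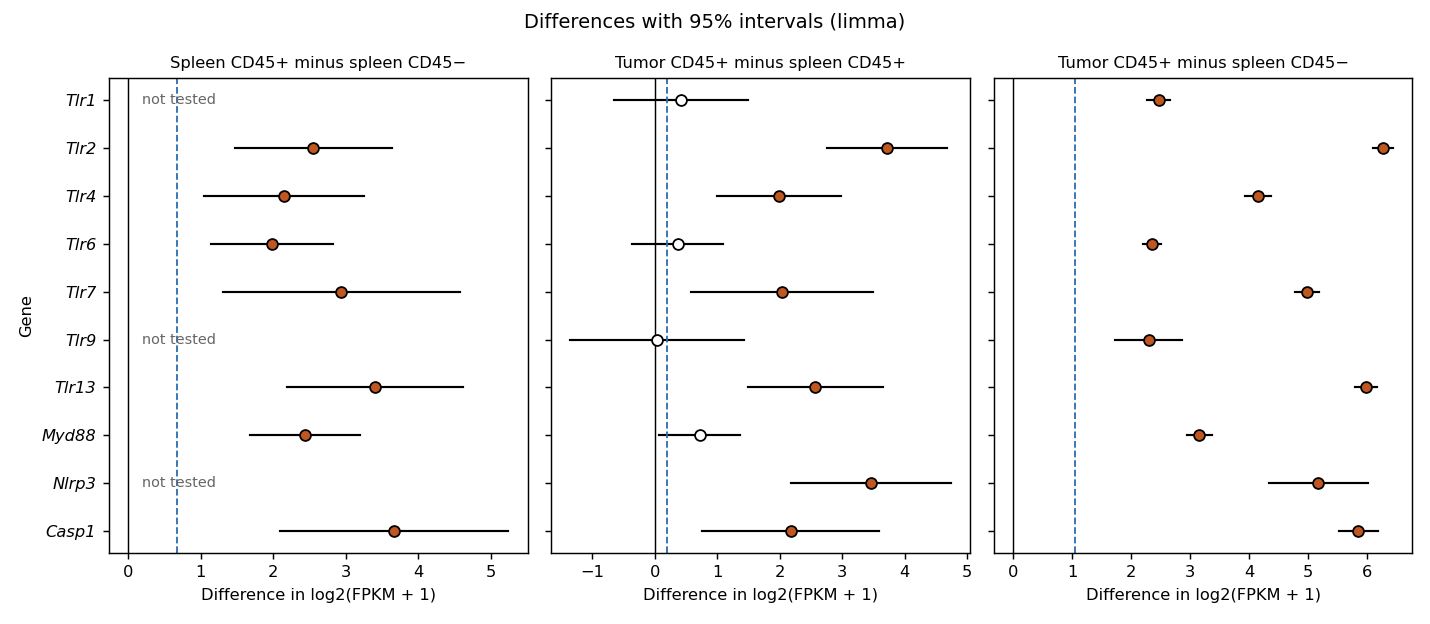
Differences in log2(FPKM + 1) (horizontal axes) with 95% intervals from limma for the 10 genes (rows) in the 3 comparisons, filled where the adjusted p was below 0.05; the dashed blue line is the median over all genes tested. In the middle panel Tlr2 (3.71) and Nlrp3 (3.47) lie furthest right, and the intervals of Tlr1, Tlr6 and Tlr9 include 0.

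Tumor CD45+ and spleen CD45- cells differ in tissue and in gate together, and this comparison shares its libraries with the other 2. All 10 genes were called higher in tumor cells, 9 of which were below 1 FPKM in every CD45- library and could not be called lower. Over the 11204 genes tested 67.5% were higher and 22.5% lower, and 66.5% had every tumor library above every spleen CD45- library. With trimmed-mean scaling the split was 4935 higher and 4974 lower in place of 7561 and 2521, and the 10 genes were still called higher. The differences ran from 2.30 ± 0.25 for Tlr9 (adjusted p = 1.83e-05) to 6.27 ± 0.08 for Tlr2 (adjusted p = 4.55e-11). Myd88, the 1 gene above 1 FPKM on both sides, was higher by 3.16 ± 0.096 (adjusted p = 2.6e-09).

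The order of the receptors differed between the groups. In tumor cells the mean levels ran from Tlr2 (90.2 FPKM) through Tlr13 (74.5), Tlr7 (47.5 to 51.4 over its 4 libraries) and Tlr4 (18.6) to Tlr9 (4.89), Tlr1 (4.85) and Tlr6 (4.28), and all but the last 3 were separated by more than their spread. In spleen CD45+ cells Tlr7 (16.5 ± 15.2 FPKM) and Tlr13 (14.4 ± 10.7 FPKM) came first and Tlr2 (6.997 ± 4.40 FPKM, SD, n = 3 for each) followed. The spread between these libraries was wide and shared by the genes. Within each library Tlr13 was above Tlr2, at 25.7 against 10.7, 4.42 against 2.12 and 13.0 against 8.19 FPKM, and Tlr4 was above Tlr1. The other neighbours in the order of means changed places between libraries. As a share of the summed FPKM of the 7 receptors, which needs no scaling between libraries, Tlr2 was 10.5%, 15.4% and 15.4% in spleen CD45+ and 36.5%, 35.7%, 36.9% and 36.8% in tumor libraries. Tlr9 was 11.3%, 6.84% and 10.8% in spleen CD45+ and 0.98%, 2.24%, 2.21% and 2.38% in tumor libraries. Neither share overlapped between the groups. Tlr1 and Tlr6 also held smaller shares in every tumor library, at most 2.20% and 1.92%, than in any spleen CD45+ library, at least 6.19% and 5.35%. The share of Tlr13 did overlap, at 24.5% to 32.2% in spleen CD45+ and 28.4% to 31.1% in tumor libraries. The 4 surface receptors together made up 31.4%, 40.3% and 38.9% of the sum in spleen CD45+ and 46.9% to 48.6% in tumor libraries. The sum itself was 102, 13.7 and 53.3 FPKM in spleen CD45+ and 229 to 257 FPKM in tumor libraries. Shares within a sum are bound to each other, so a lower share of Tlr9 shows unequal levels and no fall of Tlr9.

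**Figure D3:**
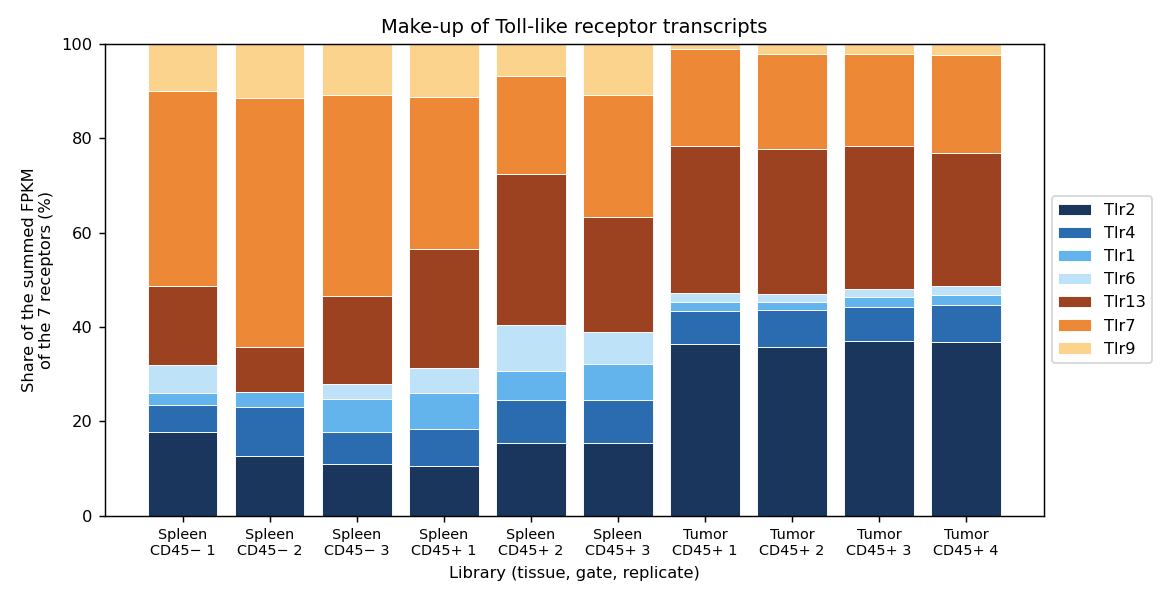
Share in percent (vertical axis) of each of the 7 receptors in their summed FPKM, 1 bar per library, with surface receptors in blue and endosomal receptors in orange and brown. Tlr2 takes 35.7% to 36.9% of every tumor bar and 10.5% to 15.4% of every spleen CD45+ bar. The spleen CD45- bars rest on sums of only 1.19 to 1.57 FPKM.

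Spleen CD45+ libraries differed in their level of Ptprc, so the genes were also set against it within each library. They also differed in which leukocyte markers they held. Replicate 2 had summed B cell markers of 149 FPKM, against 1364 and 1236 FPKM in replicates 1 and 3. Its granulocyte markers summed to 32399 FPKM, against 23140 and 77744 FPKM. Ptprc therefore does not stand for all leukocyte RNA. Ptprc was at 265, 39.2 and 153 FPKM in spleen CD45+ and at 59.4, 90.1, 91.2 and 92.5 FPKM in tumor libraries, and did not pass the test between them (-0.51, adjusted p = 0.463). Per 100 FPKM of Ptprc, Tlr4 was at 3.04, 3.16 and 3.17 FPKM in the 3 spleen CD45+ libraries, whose Tlr4 levels had differed more than 6 times, and at 20.7 to 26.9 FPKM in tumor libraries. Tlr2 was at 4.02 to 5.41 FPKM per 100 of Ptprc in spleen CD45+ and 98.4 to 141 FPKM in tumor libraries. Nlrp3 was at 1.73 to 2.15 FPKM and 26.7 to 55.1 FPKM. Ptprc averaged 152.5 FPKM in spleen CD45+ and 83.3 FPKM in tumor libraries, so dividing by it raises tumor values on average for any gene. The share of all genes that did not overlap on this scale was not computed, so the next count is no result about these genes. On this scale 9 of the 10 genes were higher in every tumor library than in every spleen CD45+ library, Tlr1, Tlr6 and Myd88 now among them. Tlr9 was the exception, with 3.79, 6.37, 6.22 and 6.36 FPKM in tumor and 4.34, 2.40 and 3.75 FPKM in spleen CD45+ libraries, and it overlapped through tumor replicate 1 alone.

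Csf1r, the growth factor receptor of macrophages, gave another reading. It was at 201, 9.39 and 40.5 FPKM in spleen CD45+ and at 254 to 305 FPKM in tumor libraries, higher in tumor cells by 2.60 (adjusted p = 0.0265). Per 100 FPKM of Csf1r, Tlr2 was the only one of the 10 genes above every spleen CD45+ library in every tumor library, at 27.4 to 36.9 FPKM against 5.31 to 22.6 FPKM. Tlr1, Tlr6, Tlr9 and Myd88 were below every spleen CD45+ library in every tumor library, and the other 5 overlapped. Nlrp3 did so through tumor replicate 1 alone, at 5.21 FPKM per 100 of Csf1r against 18.9, 19.6 and 19.1 FPKM in the other tumor libraries and 2.84, 7.56 and 6.53 FPKM in spleen CD45+ libraries. Dividing by Csf1r, which was higher in tumor cells, lowers tumor values on average for any gene. The share of all genes above or below on this scale was not computed either. These ratios are descriptions, since the reference genes were chosen with the levels known. The part of monocytes and macrophages in the differences was not tested.

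**Figure D4:**
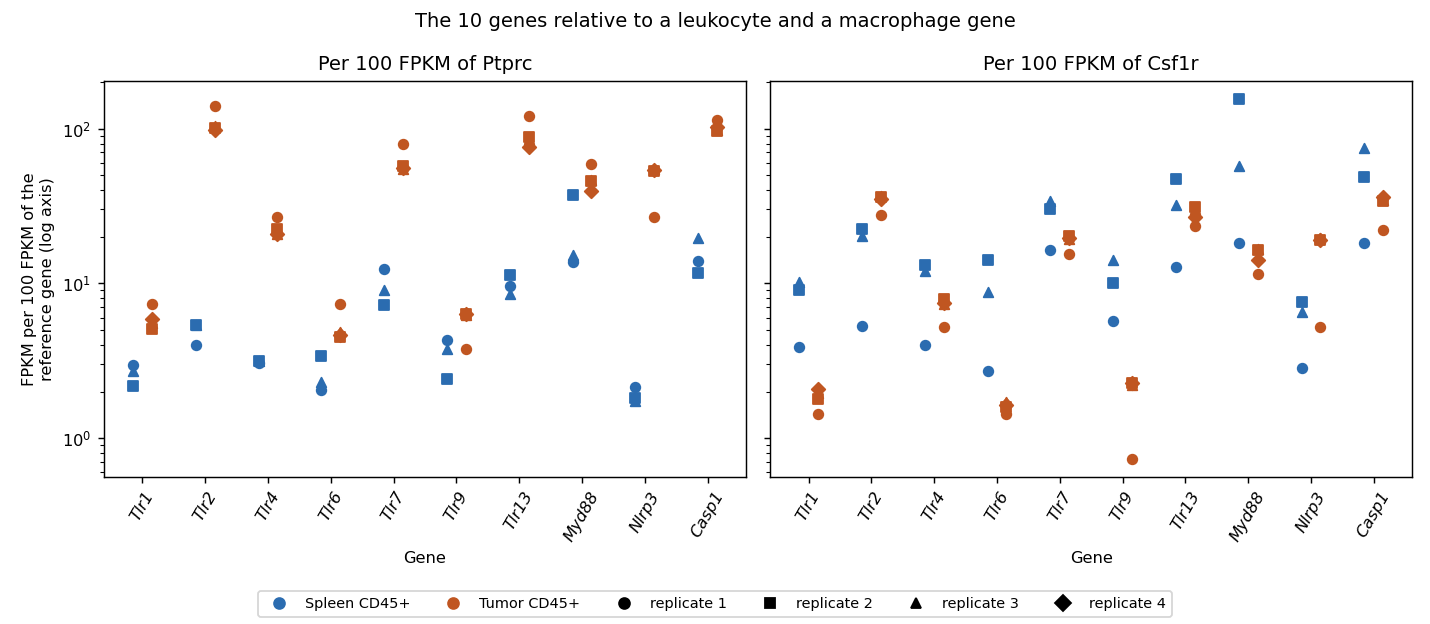
FPKM of each gene per 100 FPKM of Ptprc (left) and of Csf1r (right), on a log axis, in spleen CD45+ (blue) and tumor CD45+ (orange) libraries, with the replicate number as the shape. On the left all tumor points lie above all spleen points for 9 of 10 genes, and on the right this holds for Tlr2 alone. The share of all genes was not computed for either ratio.

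Nlrp3 has 4 transcript models in the tables, of which the 2 curated ones begin 1117 bases apart, at the start sites whose promoters are printed above. The model from the upstream site, NM_001359638, was at 3.87, 0.55 and 1.33 FPKM in spleen CD45+ and at 13.3, 44.4, 46.7 and 47.2 FPKM in tumor libraries. The model from the downstream site, NM_145827, was at 1.84, 0.16 and 1.31 FPKM in spleen CD45+ and at 2.44, 3.48, 1.80 and 2.74 FPKM in tumor libraries. The upstream model therefore held 67.8%, 77.5% and 50.4% of Nlrp3 in spleen CD45+ and 83.8%, 92.5%, 92.9% and 94.5% in tumor libraries, with no overlap. The division between models of a gene is the authors' estimate, and the pair was chosen for description after its values were seen, so no test is given.

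**Figure D5:**
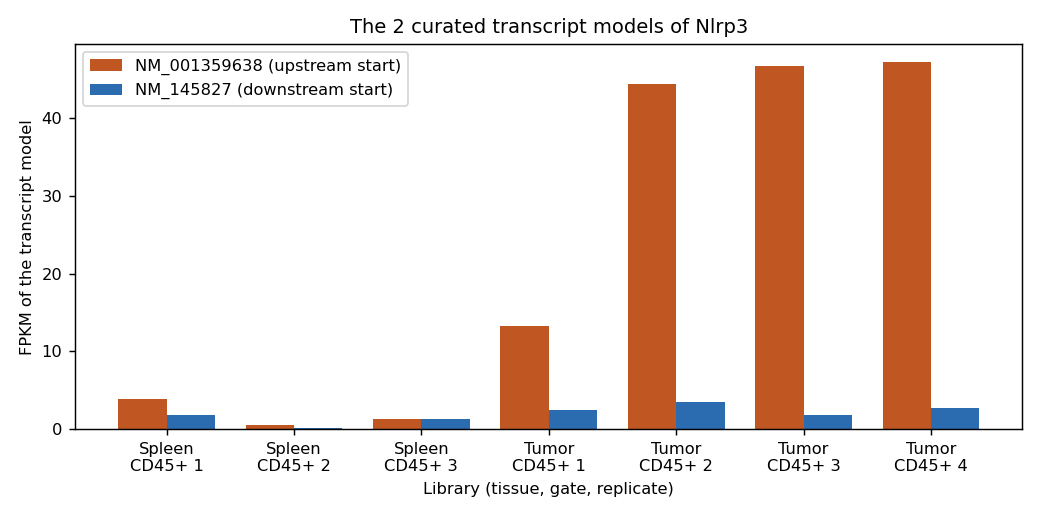
FPKM (vertical axis) of the 2 curated Nlrp3 models in each spleen CD45+ and tumor CD45+ library, with orange bars for the model from the upstream start site and blue bars for the downstream one. The upstream model reaches 44.4 to 47.2 FPKM in tumor replicates 2 to 4, and the downstream model stays at or below 3.48 FPKM in all 7 libraries.

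The other genes of the pathway were taken as 10 lists of 125 genes, chosen by role with earlier results of these data known. Their counts between tumor and spleen CD45+ cells are to be read beside 37.8% of all genes tested higher and 26.0% lower. Of the other Toll-like receptors, Tlr3, which detects double-stranded RNA, and Tlr8 passed the filter, and both were higher in tumor than in spleen CD45+ cells. Tlr3 went from 1.46 ± 1.18 to 9.86 ± 2.26 FPKM (log2 difference 2.24, adjusted p = 0.00108) and Tlr8 from 6.57 ± 6.90 to 25.0 ± 2.63 FPKM (adjusted p = 0.00917, SD, n = 3 and 4). Among 11 co-receptors, chaperones and trafficking factors, 6 were higher and 2 lower (4 and 1 without tumor replicate 1), with a median of 1.31, or 0.77 without spleen CD45+ replicate 2. Cd14, which hands lipopolysaccharide to Tlr4, was at 31.7, 7.15 and 47.1 FPKM in spleen CD45+ and at 1439 to 1506 FPKM in tumor libraries (5.98, adjusted p = 4.86e-05). Hsp90b1, the chaperone that Toll-like receptors need to fold, was higher by 1.25 (adjusted p = 0.00287). Lbp, the lipopolysaccharide-binding protein, was lower by the same test, at 7.13 ± 3.54 against 0.31 ± 0.14 FPKM (adjusted p = 0.000112).

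More adaptors and kinases were called lower than higher. Of 17 tested, 2 were higher (37.8% of all genes tested) and 7 lower (26.0%) in tumor than in spleen CD45+ cells, with a median of -0.33, and without spleen CD45+ replicate 2 the number lower was 11. Tab3, a partner of the kinase Tak1, fell from 18.4 ± 1.60 to 1.98 ± 0.30 FPKM (-2.71, adjusted p = 3.88e-06), and Chuk, a subunit of the IkB kinase, from 24.5 ± 2.60 to 15.7 ± 1.68 FPKM (-0.61, adjusted p = 0.00916). Ticam2, which couples Tlr4 to the Myd88-independent branch, rose from 2.82 ± 2.36 to 8.92 ± 0.28 FPKM (1.58, adjusted p = 0.0089). Tab3 was also at 14.5 to 26.3 FPKM in the spleen CD45- libraries. Of the erythroid markers, 9 of 9 were lower in tumor than in spleen CD45+ libraries, with a summed level of 128970 to 275250 FPKM in spleen CD45+ and 5975 to 40797 FPKM in tumor libraries. Their part in the lower kinase levels was not tested.

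Further down the pathway, 6 of 12 transcription factors were higher and 0 lower (limma; 0 also at an unadjusted p under 0.05; 4 higher without tumor replicate 1), led by Atf3, a stress-induced repressor, at 13.4 against 347 FPKM (5.62, adjusted p = 0.00139). Of 14 negative regulators, 9 were higher and 0 lower (0 also at an unadjusted p under 0.05), and without spleen CD45+ replicate 2 there were 8 higher and 1 lower. Among them Nfkbia, the inhibitor of NF-kB, was at 35.8 against 500.1 FPKM (3.93, adjusted p = 0.000302) and Socs3, a suppressor of cytokine signalling, at 13.7 against 187 FPKM (4.03, adjusted p = 0.000328). Tnip3, an inhibitor of NF-kB activation, was at 0.11 against 11.2 FPKM (3.46, adjusted p = 5.54e-07), but it was below 1 FPKM in every spleen CD45+ library and could only be called higher. Of 17 target cytokines and enzymes, 14 were higher and 1 lower, with a median of 4.50, the highest of the 10 lists (15 higher and 2 lower without spleen CD45+ replicate 2). 5 of the 17 were below 1 FPKM in every spleen CD45+ library and could only be called higher. Cxcl1, a chemokine for neutrophils, was at 0.34, 0 and 0.05 FPKM in spleen CD45+ and at 298, 708, 733 and 843 FPKM in tumor libraries (9.07, adjusted p = 7.42e-07). Nos2, the inducible nitric oxide synthase, was at 6.20 FPKM in tumor cells (2.81, adjusted p = 1.02e-06) and Cxcl3 at 54.6 FPKM (5.50, adjusted p = 2.61e-07). Krt8 and Krt18 were likewise near 0 in spleen CD45+ cells, at 0.02 and 0.13 FPKM, and at 219 and 117 FPKM in tumor cells, and the part of carcinoma RNA in the levels of these targets was not tested.

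On the inflammasome side, 8 sensors other than Nlrp3 were tested, with 3 higher and 1 lower, where 37.8% and 26.0% of all genes tested were, and a median of 0.66, or 0.002 without spleen CD45+ replicate 2. Ifi204, an interferon-induced sensor of DNA, was at 8.76 against 137 FPKM (4.25, adjusted p = 0.00116), Naip2 was higher by 1.08 (adjusted p = 0.0108) and Nlrp12 fell from 2.11 to 0.05 FPKM (-1.51, adjusted p = 0.000531). Without spleen CD45+ replicate 2 the sensors lower were 2. Of 12 assembly factors and executioners, 8 were higher and 0 lower (limma; 1 lower at an unadjusted p under 0.05), with a median of 1.66, and without that library 7 were higher and 2 lower, with a median of 1.10. Pycard, the adaptor that joins Nlrp3 to caspase 1, was at 5.81 against 37.1 FPKM (2.57, adjusted p = 0.000207). P2rx7, the ATP-gated channel that triggers Nlrp3, was at 3.09 against 42.0 FPKM (3.71, adjusted p = 0.000315), and Ninj1, which ruptures the membrane of dying cells, at 19.6 against 278 FPKM (3.96, adjusted p = 0.000125). Of 11 genes for interleukin 1 and 18, their receptors and antagonists, 6 were higher and 3 lower. Il1rn, the receptor antagonist, was at 5.92 against 227 FPKM (5.20, adjusted p = 1.09e-05), Il1a at 1.04 against 71.3 FPKM (5.01, adjusted p = 0.000378) and Il18r1 at 4.09 against 0.08 FPKM (-2.15, adjusted p = 0.000254). Il1b, named here for its role as the substrate of caspase 1 and not by the rule, was at 101, 9.39 and 88.5 FPKM in spleen CD45+ and at 165, 415, 483 and 569 FPKM in tumor libraries (3.03, adjusted p = 0.0126). Among 11 other microbial sensors 5 were higher, with the lectins Clec4e (3.43, adjusted p = 3.55e-05) and Clec4d (4.07, adjusted p = 7.53e-05) leading, and Mavs was lower (-0.93, adjusted p = 0.00204). Without spleen CD45+ replicate 2 the lower ones were 2.

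Between the spleen groups the same lists were mostly higher in CD45+ cells, beside 50.5% of all genes tested higher and 5.01% lower. All 10 assembly factors and executioners tested were higher, as were 6 of 6 other inflammasome sensors, 10 of 12 negative regulators and 7 of 8 targets, with 0 lower in these 4 lists (limma; 0 also at an unadjusted p under 0.05). Of these genes, 5 of the 10, 4 of the 6, 4 of the 12 and 4 of the 8 were below 1 FPKM in every CD45- library and could only be called higher. Gsdmd, the pore-forming substrate of caspase 1, rose from 2.05 ± 0.17 to 22.4 ± 12.4 FPKM (2.78, adjusted p = 0.00194, SD, n = 3 for each). Zfp36, which destabilises cytokine messages, was higher by 4.61 (adjusted p = 0.00221) and Irf8, a myeloid transcription factor, by 3.75 (adjusted p = 0.00408). Of 16 adaptors and kinases, 9 were higher and 0 lower, and 4 of the 16 could only be called higher for the same reason. Their median of 0.73 lay near the 0.67 over all genes tested, and their share higher near the 50.5%. Irak4, the kinase that binds Myd88, was among the 9 higher (2.39, adjusted p = 0.00139, limma). Without spleen CD45+ replicate 2 there were 12 higher and 1 lower. Also higher were 8 of 10 co-receptors, chaperones and trafficking factors, 9 of 11 transcription factors and 7 of 10 other microbial sensors. Of 10 interleukin 1 and 18 genes, 7 were higher and 0 lower, or 8 and 2 without replicate 2. Irf7 and Cd36 were lower in CD45+ cells, each the only lower gene of its list and named after its value was seen.

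The genes whose levels most resembled each of the 10 over the 10 libraries were found by the mean absolute difference of log2(FPKM + 1) after each gene was centred, over 11536 genes. Casp1 was nearest to Psmb8 (0.08), a subunit of the immunoproteasome, and Tlr4 to Pkib (0.07) and Akr1b10 (0.10). Tlr6 was nearest to Runx3 (0.08), Tlr2 to Slc15a3 (0.11), and Tlr9 to Chd3 (0.13) and Rel (0.14), the last an NF-kB subunit. Nlrp3 had the least close neighbours, Cpq (0.18) and Gbp2b (0.20). Within the 10, Tlr1 and Tlr6 were the most alike (0.15), followed by Tlr1 and Tlr9 (0.19), and Tlr2 and Tlr9 were the least alike (1.83). Over all genes, Tlr1 was nearer to Tecpr1 (0.09) and Nuak2 (0.10) than to Tlr6. Reads of Tlr1 and Tlr6 may be shared, and the part of this in their likeness was not tested. Cell content differed between the groups and also within them, so such likeness is a description.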

How the data were processed

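RNA was extracted with TRIZOL and libraries were made by a company, per the labels' protocols; neither label nor header names the kit, strand use, aligner or counting program (not given in the sources). GRCm38.p6 is the build in the submitters' processing notes. The authors deposited 1 expression value, read here as FPKM (fragments scaled to transcript length and library depth), for each of 61685 RefSeq models in each of 10 libraries, with no unit named. The reading as FPKM rests on values with 2 decimals and on sums that differ between libraries (801072 to 1367791), while values times length, over 24850 models of known length, sum to 971633 to 1174331 in every library. Low values rose in steps worth 1 fragment, which gave the depth.

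Models were summed by symbol into 17599 genes; 1526 models without a symbol (0.426% to 1.07% of FPKM) were left out. Each comparison was fitted with limma 3.58.1 (R 4.3.3) on log2(FPKM + 1), with the libraries of both groups, a trended prior and no covariate. Genes entered if 3 or more of these libraries reached 1 FPKM. The threshold was a Benjamini-Hochberg adjusted p of 0.05, and the script was tested on simulated data. Tables and plots used Python 3.11.15, pandas 2.3.3 and matplotlib 3.10.9. The genes and lists were chosen with earlier results of these data known. Named were the 10 genes, the 3 called genes of each list with the smallest adjusted p in a comparison, and the 2 nearest genes by pattern, the last 2 sets given only in part here. Alternatives covered the pseudocount, filter, scaling between libraries, globins, the summing of models, 1 fit over all libraries, the replicate number and each library left out. Leaving out a library over the same genes was added after seeing the data. Promoter sequences are RefSeq's.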

Additional observations from a re-analysis of the deposited data

Results flagged for a closer look

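In 2 of the 10 genes the lowest of the 4 tumor CD45+ libraries stood far from the other 3, and it was replicate 1 in both. Nlrp3 was at 15.87 FPKM there and at 47.96 to 50.26 FPKM in the others, a gap of 0.933 of the whole range. Tlr9 was at 2.25 FPKM there and at 5.67 to 5.88 FPKM in the others, a gap of 0.942 of the range. Chance flags about 1 in 20 such groups. The same library held 10.4% globin, against 1.80% to 1.87% in the others, summed granulocyte markers of 1771 FPKM, against 69.5 to 77.2 FPKM, summed monocyte and macrophage markers of 45768 FPKM, against 24418 to 30014 FPKM, and epithelial and carcinoma markers of 406 FPKM, against 312 to 318 FPKM. It also held summed T and NK cell markers of 7.35 FPKM, against 40.3 to 42.0 FPKM, and summed dendritic cell markers of 236 FPKM, against 429 to 487 FPKM. Nearly all of the dendritic cell sum was a single gene, Bst2, at 232 FPKM against 420 to 479 FPKM, so it says little about dendritic cells. Lyz2 was the largest part of the monocyte and macrophage sum, at 29160 FPKM in replicate 1 and 11438 to 15342 FPKM in the others. Itgam, Adgre1, Ly6c2, Mrc1 and Fcgr1 were lower in replicate 1 than in the other tumor libraries. The remaining markers of that list were higher in it. The part of any of these differences in either level was not tested. Tlr2, Tlr13 and Myd88 in that library were not flagged.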

How the results depend on the processing

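In the test of spleen CD45+ against spleen CD45- cells the number of the 10 genes called higher was 1 to 7 when a library was left out and the filter applied again, the 1 being the sole gene still tested with 2 CD45+ libraries; it was 10 with no filter. Of the values for single genes, 138 of 138 between the spleen groups, 250 of 250 between tumor and spleen CD45- cells and 222 of 250 between tumor and spleen CD45+ cells kept their direction and side of the threshold. Settings in which a gene failed the filter are not counted. In both comparisons with CD45- cells, every gene tested except Myd88 was below 1 FPKM in all CD45- libraries and could only be called higher. The kept direction there is therefore no sign of robustness. Tlr9 turned to -0.008 with trimmed-mean scaling, -0.0707 with median-ratio scaling and -0.3326 without globins, and Tlr6 to -0.0011 without globins. With a library left out, filter applied again or not, the differences ran from -0.7056 to 0.6389 for Tlr9 (also -0.0444, -0.0394 and -0.0543), from -0.2059 to 0.9215 for Tlr1 and from -0.0372 to 0.6984 for Tlr6; the causes were not tested. Myd88 passed with trimmed-mean scaling (adjusted p = 0.0441, limma), a common sum (0.0205) and 1 fit over all 10 libraries (0.0254). Over all genes, the counts higher and lower between the spleen groups (4911 and 487) were 2363 and 2357 with trimmed-mean scaling, 2266 and 2909 with median-ratio scaling, 5742 and 121 with a common sum, 3868 and 879 without globins and 5314 and 1421 without spleen CD45+ replicate 2; with another library left out the lower count was 201 to 344, and the higher count 2740 without spleen CD45+ replicate 1 and with the filter applied again. Between tumor and spleen CD45- cells (7561 and 2521) they were 4935 and 4974, 5141 and 4742, 8743 and 1593, and 5893 and 3832 in the first 4 of these settings. Between tumor and spleen CD45+ cells a common sum gave 1964 lower in place of 2985. At this depth values below 1 FPKM rest on few fragments.

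Whether shared replicate numbers pair the libraries is not known. Correlations of deviations between libraries of the same number were -0.175, -0.1 and -0.043 for tumor and spleen CD45+ cells. They were 0.118, 0.085 and -0.015 for the spleen groups, and 0.235, 0.095 and -0.023 for tumor and spleen CD45- cells. Libraries of different numbers were not correlated, so these values cannot decide it. With the replicate block the genes called higher were 7 between the spleen groups, 6 between tumor and spleen CD45+ and 10 between tumor and spleen CD45- cells, and Tlr9 was at -0.0543. Tumor replicate 4 has no partner and adds nothing to the contrast in that fit.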

Other observations

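Some partners of the 10 genes are described here for their roles, outside the naming rule and with their values seen. Ly96, the co-receptor that binds lipopolysaccharide beside Tlr4, was at 12.6, 0.99 and 9.11 FPKM in spleen CD45+ and at 33.1, 35.7, 38.2 and 42.2 FPKM in tumor libraries, and rose by 2.56 ± 0.60 (adjusted p = 0.00636, limma). Unc93b1, which carries Tlr7, Tlr9 and Tlr13 to endosomes, was at 142, 14.0 and 86.9 FPKM in spleen CD45+ and at 260, 235, 242 and 242 FPKM in tumor libraries, and rose by 2.10 ± 0.68 (adjusted p = 0.0259). Neither gene overlapped between these groups. Tnf, the cytokine most often read as an output of these receptors, was at 4.52, 1.76 and 7.08 FPKM in spleen CD45+ and at 69.5, 220, 229 and 221 FPKM in tumor libraries, with replicate 1 the lowest of the tumor libraries, as for Nlrp3. Tnf was higher by 5.08 ± 0.52 (adjusted p = 9.28e-05).

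Il18, the other cytokine that caspase 1 matures, did not pass between the same groups. It was at 37.6, 1.61 and 14.9 FPKM in spleen CD45+ and at 35.0, 40.9, 41.6 and 40.5 FPKM in tumor libraries, a difference of 1.79 ± 0.78 (adjusted p = 0.0772). Tumor replicate 1 lay below spleen CD45+ replicate 1. Gsdmd, whose product caspase 1 also cuts, was at 34.4, 9.66 and 23.2 FPKM in spleen CD45+ and at 52.8, 62.0, 61.6 and 58.9 FPKM in tumor libraries, higher by 1.51 ± 0.37 (adjusted p = 0.0077).

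The receptors Tlr5, Tlr11 and Tlr12 reached 1 FPKM in too few libraries to be tested. Tlr11, a receptor for profilin of parasites, was at 3.30, 0.28 and 1.12 FPKM in spleen CD45+ and at 0 to 0.11 FPKM in tumor libraries. Tlr5, the flagellin receptor, was at 1.03, 0.34 and 0.91 FPKM in spleen CD45+ and at 0.76 to 1.08 FPKM in tumor libraries.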
